A study of Mus musculus with 26 samples.

Results

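The 10 genes described here mark T cells and natural killer (NK) cells, and they were followed in mouse tibialis anterior (TA) muscle over 10 days of repair. They are *Cd3e*, *Cd3d* and *Cd3g*, which encode invariant chains of the T cell receptor complex, *Cd4* and *Cd8a*, the coreceptors of helper and cytotoxic T cells, *Foxp3*, the transcription factor of regulatory T cells, *Nkg7*, *Gzma* and *Gzmb*, which encode proteins of cytotoxic granules, and *Il2rb*, the beta chain shared by the IL-2 and IL-15 receptors. The members were taken by symbol from the regeneration table, where all 10 were found among 53465 genes. In the study, adult male C57BL/6 J mice had a TA muscle injected with cardiotoxin (CTX), a snake venom toxin that destroys myofibers, and RNA-seq was made of muscle on days 0, 1, 3, 5 and 10, with 2 libraries per day. The methods name normal saline as the control of the injury experiment, and the labels of day 0 do not say whether these muscles were injected. A second table holds 8 libraries of C2C12, a mouse myoblast line without immune cells, carrying a control construct (CTRL) or dCas9-KRAB, a repressor guided to a promoter, aimed at *Mettl3* (Cas9M3), either undifferentiated in growth medium (day 0) or after 3 days of differentiation, with 2 libraries in each of these groups.

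T cells recognize peptides on other cells through a receptor that signals through the CD3 chains, while NK cells kill without such a receptor and share their granule contents with cytotoxic T cells. Both arrive in an injured muscle from the blood, after the neutrophils and along with or after the monocytes that become macrophages. Regulatory T cells are known in injured muscle as a small population that acts on macrophages and satellite cells. These cells are rare in whole muscle, and in bulk RNA fewer cells of a type and less RNA per cell cannot be told apart.

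The values are FPKM, fragments counted on a gene relative to its exon length and to a scaling factor of the library, called depth below. Levels can thus be set side by side between genes per length. In each library the low values came in steps, each worth 1 read, and this gave 14170000 to 18820000 reads on genes per library and 0.0494 to 0.0817 FPKM per read on a gene of 1 kb. Reads given below are those implied by these steps, and intervals made from them cover counting error only. Most of the signal was low: 64 of the 100 values of the 10 genes were below 0.5 FPKM, and 6 were listed at 0. Genes were tested where at least 2 libraries reached 0.5 FPKM, which 16753 genes did, among them 7 of the 10 members (*Cd3e*, *Cd3g* and *Cd8a* did not). *Cd3d* reached 0.5 FPKM on day 3 alone, *Cd4* and *Il2rb* on days 3 and 5 alone, and *Nkg7* and *Gzma* on days 1, 3 and 5 alone. The filter thus favoured calls of these genes on those days, and the counts of calls are a description. Calls are made at an adjusted p of at most 0.05 in limma, with fold changes on the scale of log2(FPKM + 0.1), which understates the change of low genes. Nothing in the labels says that the 2 libraries of a day came from separate mice, so p-values measure the spread between these libraries, and an exact two-sided permutation test of 2 against 2 libraries could not go below 0.333.

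The libraries did not all carry the transcripts of male mice. In 5 of 10 libraries, namely both of day 0, replicate 2 of day 3 and both of day 10, *Xist*, the RNA of the inactive X chromosome, was between 5.78 and 10.0 FPKM and the Y-linked *Ddx3y* was at most 0.101 FPKM. In the other 5 libraries, *Ddx3y* was between 6.10 and 11.4 FPKM and *Xist* was at most 0.152 FPKM. Day 3 was the only day with a library of each kind, so its 2 libraries did not come from the same mouse. For days 1 and 5 against day 0, and for day 10 against day 5, this split and the day cannot be told apart. Where a term for it changed a count of members, that count is also given. Calls of the marker lists and of other genes are given without the term. With it, 0 of all tested genes were called on day 1 or on day 5 against day 0. The tissue label was borne out by myofiber genes, since the 8 skeletal muscle fibre markers had a summed level of 13650 to 78170 FPKM.

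Sequence just before the transcription start is shown for a pair of neighbouring CD3 genes and for the 2 granzyme genes, because *Cd3d* and *Gzma* rose on day 3 whereas *Gzmb* had its highest mean on day 1. The 250 bases before the start come from RefSeq (GRCm38.p6), which gave an entry for 8 of the 10 genes, and are written 5′ to 3′ on the strand of the gene. Capitals mark matches, on either strand, to TGTGGT (a RUNX core), AGGAAG (an ETS site), CACCTG (an E-box), AGGTGT (a T-box element, which overlaps the E-box in ACACCTG) and AGATAA, which GATA factors bind.
*Cd3d*, chr9:44981536-44981785, plus strand: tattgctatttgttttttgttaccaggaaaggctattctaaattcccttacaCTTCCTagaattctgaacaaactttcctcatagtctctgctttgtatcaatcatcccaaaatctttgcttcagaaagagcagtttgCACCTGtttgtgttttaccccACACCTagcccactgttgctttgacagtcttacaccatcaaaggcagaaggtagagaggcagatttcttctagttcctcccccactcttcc
*Cd3g*, chr9:44980432-44980681, minus strand: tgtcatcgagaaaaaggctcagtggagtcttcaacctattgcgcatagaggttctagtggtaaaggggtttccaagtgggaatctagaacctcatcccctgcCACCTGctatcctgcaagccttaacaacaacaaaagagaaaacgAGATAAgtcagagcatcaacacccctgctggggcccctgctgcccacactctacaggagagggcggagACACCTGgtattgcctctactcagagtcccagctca
*Gzma*, chr13:113100982-113101231, minus strand: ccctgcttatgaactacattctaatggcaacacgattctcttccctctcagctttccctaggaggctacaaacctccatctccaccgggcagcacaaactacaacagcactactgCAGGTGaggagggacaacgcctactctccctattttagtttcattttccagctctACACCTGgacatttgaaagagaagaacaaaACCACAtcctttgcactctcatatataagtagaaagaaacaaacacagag
*Gzmb*, chr14:56262335-56262584, minus strand: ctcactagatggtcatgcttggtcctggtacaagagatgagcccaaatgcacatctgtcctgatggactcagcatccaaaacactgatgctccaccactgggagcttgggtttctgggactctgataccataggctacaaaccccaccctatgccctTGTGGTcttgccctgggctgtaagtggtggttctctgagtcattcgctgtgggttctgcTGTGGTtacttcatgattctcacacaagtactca
*Cd3d* and *Cd3g* are transcribed away from each other, with 1354 bases between their starts in GENCODE M21. The windows of *Cd3d*, *Cd3g* and *Gzma* each held an E-box match, which 17.2% of 32851 RefSeq promoter windows of this length held, and a T-box match, which 11.8% held. No E-box match was found in the windows of *Nkg7*, which also rose on day 3, nor in those of *Cd3e*, *Cd8a*, *Foxp3* and *Gzmb*. *Nkg7* and *Cd3e* held a T-box match. *Gzma* and *Nkg7* each held 1 RUNX match and *Gzmb* held 2, against 14% of all windows with at least 1. An ETS match, found in 29.5% of windows, was present in those of *Cd3d*, *Cd3e* and *Nkg7* and in a window of *Foxp3*. A GATA match, found in 9.99%, was present in that of *Cd3g* and in the same window of *Foxp3*. Such matches describe letters and not bound sites.

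Among the CD3 chains, *Cd3d* alone passed the filter, through the 2 libraries of day 3, so it was tested because it was high on that day. This gene (ENSMUSG00000032094, chromosome 9, 44981786 to 44987339, GRCm38) was 0.0442 and 0.0413 FPKM in the 2 libraries of day 0, 0.0770 and 0.126 on day 1, 0.614 and 0.545 on day 3, 0.304 and 0.140 on day 5 and, by day 10, 0 and 0.125. Both libraries of day 3 lay above all others, with 42 reads in all against 2 on day 0. Its log2 fold change was 2.25 ± 0.59 (SE) on day 3 against day 0 (limma, adjusted p = 0.0152) and 1.13 ± 0.59 on day 5 (adjusted p = 0.192).

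*Cd3g*, its neighbour (chromosome 9, 44969572 to 44980431), stayed below the filter. It was 0.0246 and 0.0458 FPKM on day 0, 0.171 and 0.0699 on day 1, 0.264 and 0.151 on day 3, 0.244 and 0.186 on day 5 and, by day 10, 0.0250 and 0.0461. Days 3 and 5 did not overlap with days 0 and 10, while replicate 1 of day 1 lay within the range of day 3. The summed reads were 3 on day 0 and 27 on day 3, a ratio of 5.81 per unit of depth with a 95% interval of 1.79 to 29.9 from counting alone. Day 10 was back at 3 reads, a ratio to day 0 of 1.01 (0.136 to 7.55).

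*Cd3e* (chromosome 9, 44998740 to 45009627) overlapped with day 0 on every other day. Its values were 0.0787 and 0.349 FPKM on day 0, 0.0514 and 0.131 on day 1, 0.410 and 0.206 on day 3, 0.436 and 0.236 on day 5 and, by day 10, 0.2002 and 0.499. The libraries of days 3, 5 and 10 lay above both of day 1 but not above both of day 0, and the highest library was replicate 2 of day 10, with 27 reads. The exons of *Cd3e* share 135 bases with an antisense gene (AC122305.3 in the files, Gm48719 in M21), and the sources used here do not say whether reads were counted by strand. That antisense gene was 0 and 1.66 FPKM on day 0, 0 and 0.211 on day 1, 0.842 and 0.411 on day 3, 1.36 and 0.983 on day 5 and, by day 10, 0.452 and 1.46. On each of the 5 days the library with more antisense signal was also the one with more *Cd3e*, and without strand the reads of the shared bases cannot be assigned to one of them.

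Of the coreceptors, *Cd4* rose on days 3 and 5, and *Cd8a*, which stayed below the filter, had more reads on these days than on day 0. *Cd4* (ENSMUSG00000023274, chromosome 6, 124864692 to 124888221) was 0 and 0.130 FPKM on day 0, 0.0866 and 0.151 on day 1, 0.980 and 1.94 on day 3, 1.04 and 0.956 on day 5 and, by day 10, 0.101 and 0.281. Every library of days 3 and 5 lay above every library of the other days, and day 3 held 236 reads against 7 on day 0. The log2 fold change was 3.29 ± 0.55 (SE) on day 3 (limma, adjusted p = 0.00249) and 2.85 ± 0.55 on day 5 (adjusted p = 0.0161), both against day 0. *Cd4* is also transcribed in other mouse leukocytes, among them some dendritic cells, and its level alone does not count helper T cells.

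*Cd8a* (chromosome 6, 71373427 to 71379173) had no read in either library of day 0, which allows up to 3 reads or 0.0662 and 0.0618 FPKM. It was 0.192 and 0.126 FPKM on day 1, 0.418 and 0.177 on day 3, 0.287 and 0.265 on day 5 and, by day 10, 0.0225 and 0.0207. Days 1, 3 and 5 lay above days 0 and 10 in every library, and days 1 and 3 overlapped. Against 3 reads over both libraries of day 0, the 16 reads of day 1 were 5.01-fold higher and the 43 reads of day 3 9.26-fold higher, per unit of depth. These ratios leave out the counting error of the later reads, and the 3 reads allowed above are per library, so they are not lower bounds. On day 10, 2 reads were left. Its partner *Cd8b1* passed the filter only through replicate 1 of day 3 and replicate 1 of day 5, so it was tested because it was high on those days. *Cd8b1* was listed at 0 in both libraries of day 0 and was called higher on day 3 (0.581 and 0.167 FPKM, limma, adjusted p = 0.0352) and on day 5 (0.621 and 0.376 FPKM, adjusted p = 0.0326).

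**Figure D1:**
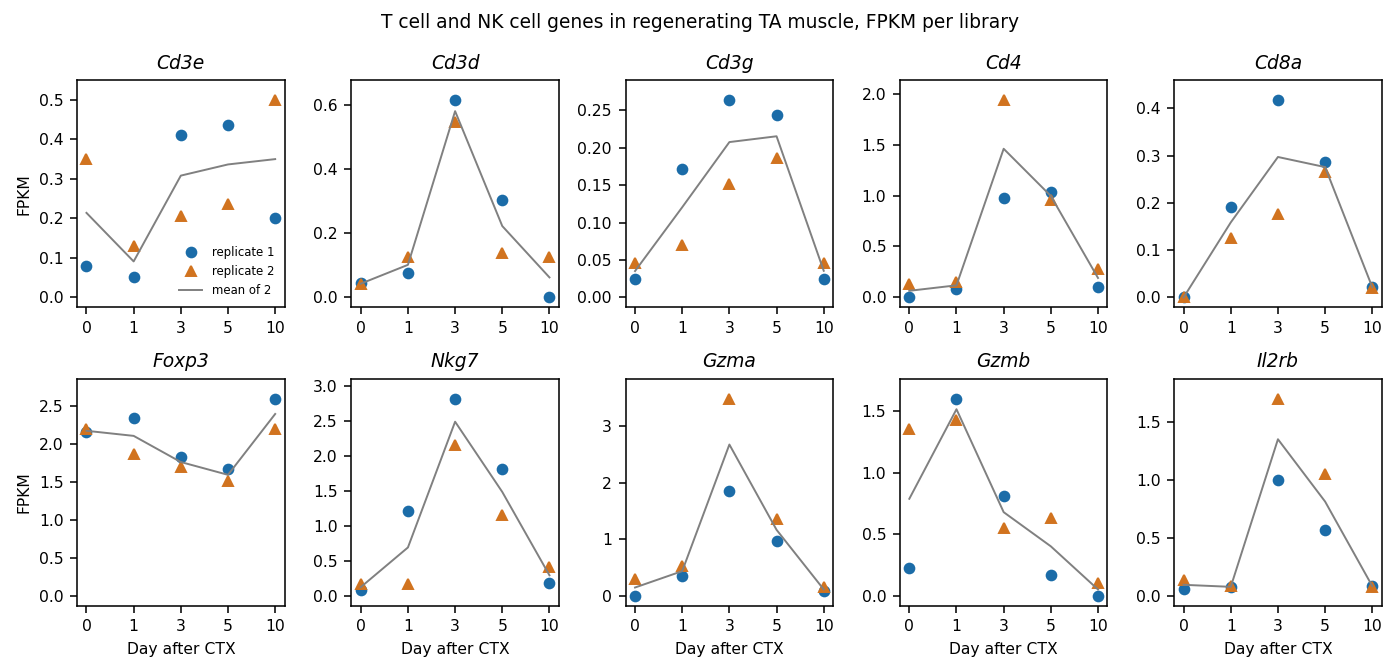
FPKM of each of the 10 genes (vertical axes, one scale per gene, from 0) by day after CTX (horizontal axes, days evenly spaced), with a circle for replicate 1, a triangle for replicate 2 and a line through the mean of the 2. *Cd3d*, *Cd4*, *Nkg7*, *Gzma* and *Il2rb* peak on day 3, *Gzmb* is highest on day 1, and *Foxp3* stays between 1.51 and 2.60 FPKM.

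The granule gene *Nkg7* rose on the same days as *Cd4*. *Nkg7* (ENSMUSG00000004612, chromosome 7, 43437073 to 43438249) encodes a membrane protein of cytotoxic granules. Its values were 0.0878 and 0.164 FPKM on day 0, 1.22 and 0.167 on day 1, 2.83 and 2.16 on day 3, 1.81 and 1.17 on day 5 and, by day 10, 0.179 and 0.412. The 2 libraries of day 1 differed widely, with 16 reads in replicate 1 and 2 in replicate 2, and replicate 1 lay within the range of day 5. The log2 fold change against day 0 was 3.53 ± 0.70 (SE) on day 3 (limma, adjusted p = 0.00497) and 2.81 ± 0.70 on day 5 (adjusted p = 0.0280).

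*Gzma* encodes granzyme A, a serine protease released by NK cells and cytotoxic T cells. The gene (ENSMUSG00000023132, chromosome 13, 113093825 to 113100981) was 0 and 0.298 FPKM on day 0, 0.347 and 0.530 on day 1, 1.86 and 3.49 on day 3, 0.976 and 1.36 on day 5 and, by day 10, 0.0812 and 0.150. Every day from 1 to 5 lay above day 0, and day 3 lay above all others. Its log2 fold change of 3.73 ± 0.64 (SE) on day 3 (limma, adjusted p = 0.00268) was 2.74 without replicate 1 of day 0, where *Gzma* was at 0, and that of day 5 was 2.65 ± 0.64 (adjusted p = 0.0252). By day 10 the reads had dropped to 3, from 108 on day 3.

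*Gzmb* encodes granzyme B, the granzyme that cleaves caspases, and it had its highest mean on day 1, earlier than *Gzma*, a difference between the genes that was not tested. *Gzmb* (ENSMUSG00000015437, chromosome 14, 56258838 to 56262260) was 0.224 and 1.36 FPKM on day 0, 1.60 and 1.43 on day 1, 0.811 and 0.551 on day 3, 0.171 and 0.636 on day 5 and, by day 10, 0 and 0.105. Day 1 was the highest day in both libraries and day 10 the lowest, while the libraries of day 0 spanned most of the range. None of the 7 comparisons of days passed the test, which did not include day 10 against day 1, with 1.23 ± 0.77 (SE) on the log2 scale for day 1 (limma, adjusted p = 0.347) and -2.26 ± 0.77 for day 10 (adjusted p = 0.428), both against day 0. The moderated F test over the 5 days called *Gzmb* at an adjusted p of 0.0489. That call was lost with a pseudocount of 1 or 0.01, with no filter on low values, with median-ratio scaling, with the term for *Xist* and when any library other than those of day 0 was left out. Days 0, 1 and 10 held 30, 60 and 2 reads, and the ratio of day 10 to day 0 was 0.0675 with a counting interval of 0.00781 to 0.266.

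Some genes of mast cells and basophils were also high on days 0 and 1 and low later. *Cpa3*, the mast cell carboxypeptidase, was 1.53 and 5.38 FPKM on day 0, 5.43 and 4.42 on day 1, 0.401 and 0.847 on day 3, 0.566 and 1.04 on day 5 and, by day 10, 0.377 and 0.248. *Fcer1a*, a chain of the IgE receptor, was 0.483 and 0.9005 FPKM on day 0 and 0.700 and 0.992 on day 1, and at most 0.151 FPKM in each later library. In both genes replicate 2 of day 0 was above replicate 1, as in *Gzmb*. Of the other genes of this marker list, *Mcpt4*, *Cma1* and *Kit* had the same order on day 0, while *Tpsb2*, *Mcpt8* and *Ms4a2* had the reverse. Of 6 tested genes of the 8 mast cell and basophil markers, 2 fell on day 3 against day 0 (*Cpa3* and *Fcer1a*) and 0 rose, where 24.3% of all tested genes were called lower, so the count is near the background. The mast cell protease *Mcpt4* had its higher values later, with 0.435 and 0.676 FPKM on day 0 against 1.77 and 2.43 on day 5, and *Cma1*, *Tpsb2* and *Kit* were not called on day 3. The summed level of the list was 6.47 to 11.5 FPKM on day 0, 11.4 to 12.2 on day 1 and 3.49 to 8.68 on day 3. The neutrophil gene *S100a8* was 0.347 and 2.48 FPKM on day 0 and 5.23 and 2.19 on day 1, and at most 1.09 FPKM later. Their part in the level of *Gzmb* was not tested.

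**Figure D2:**
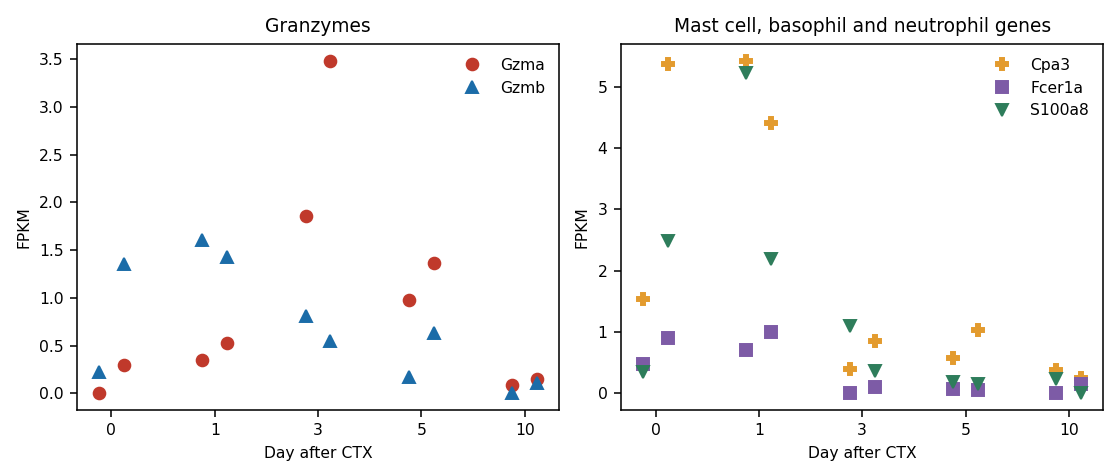
FPKM per library (vertical axes, linear from about 0) by day after CTX (days evenly spaced, replicate 1 left and replicate 2 right of each day) for *Gzma* and *Gzmb* on the left and for *Cpa3*, *Fcer1a* and *S100a8* on the right. *Gzma* is highest on day 3 (1.86 and 3.49 FPKM), whereas *Gzmb*, *Cpa3*, *Fcer1a* and *S100a8* are low on day 10 and have their highest library on day 1.

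*Il2rb*, the beta chain through which T and NK cells receive IL-2 and IL-15, changed most sharply between days 1 and 3. The gene (ENSMUSG00000068227, chromosome 15, 78479256 to 78495271) was 0.0576 and 0.134 FPKM on day 0, 0.0752 and 0.0820 on day 1, 1.00 and 1.70 on day 3, 0.573 and 1.06 on day 5 and, by day 10, 0.0880 and 0.0812. Days 0, 1 and 10 formed one range and days 3 and 5 another, with no overlap between them. The log2 fold change was 2.87 ± 0.45 (SE) for day 3 against day 0 (limma, adjusted p = 0.00186), 2.98 ± 0.45 for day 3 against day 1 (adjusted p = 0.00443) and 2.20 ± 0.45 for day 5 against day 0 (adjusted p = 0.0176). The reads behind these means were 7, 6, 151, 84 and 6 for days 0, 1, 3, 5 and 10.

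*Foxp3* was the member with its lowest values on days 3 and 5, when most others were highest. The gene (ENSMUSG00000039521, chromosome X, 7573644 to 7595245) was 2.15 and 2.20 FPKM on day 0, 2.35 and 1.87 on day 1, 1.83 and 1.70 on day 3, 1.68 and 1.51 on day 5 and, by day 10, 2.60 and 2.19. Days 3 and 5 lay below all libraries of the other days, and each library held 98 to 144 reads. None of the 7 comparisons passed the test, with log2 fold changes against day 0 of -0.29 ± 0.17 (SE) on day 3 (limma, adjusted p = 0.203) and -0.43 ± 0.17 on day 5 (adjusted p = 0.106), and the F test over the 5 days gave an adjusted p of 0.117. Under quantile normalization *Foxp3* was called lower on both days (adjusted p = 0.0312 and 0.0421). On days 0 and 10, *Foxp3* was above each of the other 9 genes in every library. It was also above *Ptprc*, which encodes CD45 of all leukocytes, at 1142% and 647% of it on day 0 and 1495% and 375% on day 10. On day 3 it was 42.2% and 38.9% of *Ptprc*. The level of *Foxp3* alone thus does not count regulatory T cells, and the source of its reads was not tested. Other genes of regulatory T cells varied in level: *Il2ra* was at most 0.239 FPKM and *Ctla4* at most 0.193 FPKM in any library, while *Tnfrsf18*, the receptor GITR, was above *Foxp3* in both libraries of day 5 (2.42 and 3.36 FPKM) and of day 10 (3.16 and 2.52 FPKM). In M21 the exons of *Foxp3* share 853 bases with the noncoding *Flicr* and 590 bases with *Ccdc22* on the other strand, which were at most 0.241 and 0.428 FPKM. The reads came out whole with a gene length of 3989 bases and not with the 4577 bases of M21, so its counted exons differ from those of M21.

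Set side by side, the comparisons against day 0, which share the 2 libraries of day 0, placed the rise on days 3 and 5. On day 1, 0 of 7 tested members were called in limma, where 3.53% of the 16753 tested genes were called higher, and 0 of the 7 had an unadjusted p under 0.05. On day 3, 5 of 7 were higher (*Cd3d*, *Cd4*, *Nkg7*, *Gzma* and *Il2rb*) and 0 lower, where 24.5% of all tested genes were called higher. On day 5, 4 of 7 were higher (the same genes without *Cd3d*), against a background of 12.9%. On day 10, 0 of 7 were called, *Gzmb* alone had an unadjusted p under 0.05, and 0.00597% of all tested genes were called higher. With a term for the libraries with *Xist*, 4 of 7 were called on day 3, all but *Cd3d*, where 2842 of 16753 genes were called higher, and 0 on day 5, where this term left 0 calls among all genes. Without replicate 1 of day 3, so that this comparison held only libraries with *Xist*, 4 of 6 tested members were called on day 3 (*Cd4*, *Nkg7*, *Gzma* and *Il2rb*), where 2610 of 16357 genes were called higher, with the lone library assumed to vary like those of the other days.

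The calls of day 5 against day 0 were sensitive to single libraries, among the members as among all genes. The members called numbered 0 when replicate 1 of day 0 was left out, 1 when replicate 1 of day 5 was, and 0 when its replicate 2 was, and in these fits the genes called higher among all tested numbered 17, 403 and 15, against 2169 with all libraries. The log2 fold change of *Cd4* was then 2.25, 2.80 and 2.90, and that of *Nkg7* 2.56, 2.51 and 3.10. The call of *Cd3d* on day 3 was lost when either library of day 0 was left out, and when either library of day 3 was, it could not be made because *Cd3d* dropped below the filter. In the comparison of day 3 with day 1, 3 of 7 members were higher (*Cd4*, *Gzma* and *Il2rb*), where 14.5% of all tested genes were called higher. *Cd3d* and *Nkg7* missed the threshold there, at adjusted p-values of 0.0545 each, and without replicate 2 of day 3 the count was 0, while the genes called higher among all tested dropped from 2435 to 517 and the log2 fold changes of *Cd4* and *Il2rb* were 2.32 and 2.62. From day 3 to day 5, 0 of 7 were called in limma, none had an unadjusted p under 0.05, and 5.46% of all tested genes were called lower. From day 5 to day 10, 0 of 7 were called, where 0.161% of all tested genes were called lower. There the log2 fold changes of *Cd4*, *Nkg7*, *Gzma* and *Il2rb* lay between -2.56 and -1.98, *Foxp3* and these 4 had an unadjusted p under 0.05, and their libraries did not overlap between the 2 days. The share of all tested genes without such overlap was not taken. Both libraries of day 5 carried *Ddx3y* and both of day 10 carried *Xist*, so these changes cannot be told apart from that split. With the term for *Xist*, 0 of 7 members and 0 of all tested genes were called. Over all 5 days, the moderated F test called 5 of 7 (*Cd4*, *Nkg7*, *Gzma*, *Gzmb* and *Il2rb*), where it called 43.0% of all tested genes. That count was 3 when replicate 1 of day 3 or of day 5 was left out, 2 when replicate 2 of day 3 was, and 3 with the term for *Xist*. The genes called among all tested were then 4007, 5447, 3418 and 4262, against 7205 with all libraries and no such term.

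**Figure D3:**
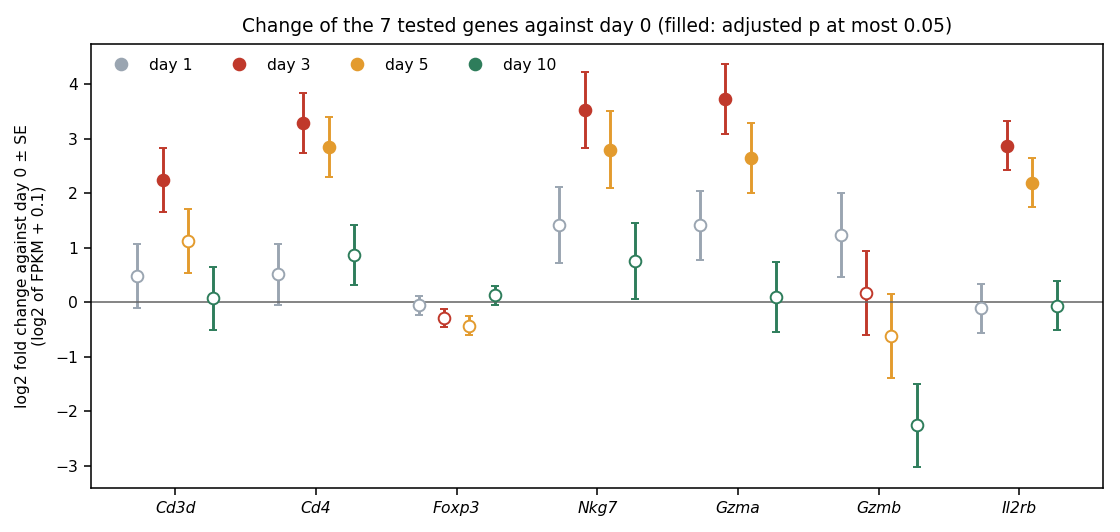
Log2 fold change against day 0 with its SE (vertical axis, log2 of FPKM + 0.1) for the 7 tested genes, in one colour per day, filled where the adjusted p was at most 0.05. On day 3 the filled points are *Cd3d*, *Cd4*, *Nkg7*, *Gzma* and *Il2rb*, between 2.25 and 3.73, while *Foxp3* and *Gzmb* have open points on every day.

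On day 3 the members ranked by mean FPKM as *Gzma* (2.68 ± 1.15, SD, n = 2), *Nkg7* (2.49 ± 0.469), *Foxp3* (1.76 ± 0.0928), *Cd4* (1.46 ± 0.677), *Il2rb* (1.35 ± 0.497), *Gzmb* (0.681 ± 0.184), *Cd3d* (0.579 ± 0.0491), *Cd3e* (0.308 ± 0.144), *Cd8a* (0.297 ± 0.171) and *Cd3g* (0.207 ± 0.0794). In that order, the libraries of *Nkg7* and *Foxp3*, of *Il2rb* and *Gzmb*, and of *Cd3d* and *Cd3e* did not overlap, and those of all other neighbours did. Across the 10 libraries, which share their days and depths, *Cd3d*, *Cd4*, *Nkg7*, *Gzma* and *Il2rb* had Pearson correlations of 0.81 to 0.94 with each other on the log2 scale, whereas those of *Gzmb* with these 5 were 0.04 to 0.40 and those of *Foxp3* with them were -0.81 to -0.59. The 3 nearest genes of *Cd3d* were *Spn*, the leukocyte sialophorin (r = 0.980), *Il17rc* (0.975) and *Gpr137b-ps* (0.972), and those of *Cd4* were *Clmp* (0.996), *Spats2l* (0.991) and *Pcdh7* (0.987). For *Nkg7* they were *Tmem62* (0.996), *Pou2f2*, a lymphoid transcription factor (0.983), and *Zfp322a* (0.976). For *Gzma* they were *Gm15821* (0.987), *Wdfy4* (0.983) and *Ifi209* (0.980), and for *Il2rb* *BC037039* (0.986), *Ndst2* (0.984) and *Tlr12* (0.982). *Foxp3* was nearest to the broadly expressed *Dars* (0.963) and *Atp6v1f* (0.947) and to *Smim11* (0.946). *Gzmb* was nearest to *Pip5k1c* (0.918), to the myeloid lectin *Clec4d* (0.902) and to *Mmp8*, a neutrophil collagenase (0.896).

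Other T cell genes moved in the same direction as *Cd3d* and *Cd4*. Of 20 genes of the T cell receptor and its signalling, 12 were tested, and 9 rose on day 3 against day 0 and 0 fell. Of all tested genes, 24.5% were called higher there. The median log2 fold change was 1.98 against 0.01 over all tested genes. *Trac*, the constant region of the receptor's alpha chain, went from 0.515 and 0.240 FPKM on day 0 to 1.90 and 1.22 on day 3 (limma, adjusted p = 0.00994). *Lck*, the kinase that starts receptor signalling, went from 0 and 0.0511 FPKM to 0.951 and 0.962 (adjusted p = 0.000727). *Tcf7*, a transcription factor also used outside the T lineage, reached 2.53 and 3.75 FPKM on day 3 from 0.306 and 0.428 (adjusted p = 0.000770). The beta chain constant regions *Trbc1* and *Trbc2* had adjusted p-values of 0.0793 and 0.0485 on day 3, and as near-identical copies they may have exchanged or lost reads. *Cd247*, the zeta chain of the receptor, stayed between 0.642 and 1.15 FPKM in all libraries. *Cd28* reached 0.5 FPKM on day 3 alone, *Zap70*, *Cd5* and *Cd8b1* on days 3 and 5 alone, and *Lck* and *Trbc1* on days 1, 3 and 5 alone. Their tests thus depended on their being high on those days, so the counts and the median of the list are a description. The count of calls was 1 of 12 on day 1 (*Lck*), 3 on day 5 (*Lck*, *Tcf7* and *Cd8b1*) and 0 on day 10. On these days 3.53%, 12.9% and 0.00597% of all tested genes were called higher.

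Among 22 other genes of NK receptors and cytotoxic granules, 4 passed the filter, and these 4 were called higher on day 3, where 24.5% of all tested genes were. None of these 4 reached 0.5 FPKM on day 0 or day 10, and *Xcl1* and *Sh2d1b1* reached it on day 3 alone. The tests of all 4 thus depended on their being high after injury. *Klrd1*, the CD94 chain, went from 0.188 and 0.175 FPKM on day 0 to 1.07 and 1.70 on day 3 (limma, adjusted p = 0.00172), and *Ctsw*, a protease of cytotoxic cells, from 0.326 and 0.182 to 2.22 and 2.49 (adjusted p = 0.00134). *Xcl1*, a chemokine of NK and CD8 T cells, was listed at 0 in all 4 libraries of days 0 and 1 and was 0.581 and 0.851 FPKM on day 3. The defining NK receptor *Ncr1* stayed below the filter, with 0 and 0.0486 FPKM on day 0, 0.395 and 0.321 on day 3, then 0.159 and 0.593 on day 5. *Prf1*, the pore protein perforin, was at most 0.314 FPKM. The summed level of the list was 0.617 to 0.870 FPKM on day 0, reached 7.85 to 9.85 on day 3 and was 0.777 to 1.44 by day 10.

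Genes of lymphocyte homing rose too. Of 10 tested among 15, 8 were higher on day 3 and 7 on day 5, both against day 0, and 0 were lower. Of all tested genes, 24.5% were called higher on day 3 and 12.9% on day 5. *Cxcr3* and *Ccr7* reached 0.5 FPKM on days 3 and 5 alone, and others, among them *Itgal* and *Cxcl10*, on days 1, 3 and 5 alone. The tests of these genes depended on their being high then. *Cxcl16*, a chemokine displayed on myeloid cells, went from 0.983 and 1.69 FPKM on day 0 to 18.1 and 15.5 on day 3 (limma, adjusted p = 0.000425), and *Cxcl10* from 0.107 and 0.333 to 4.36 and 2.74 (adjusted p = 0.00565). The integrin chain *Itgal* rose from 0.147 and 0.228 FPKM to 4.04 and 5.14 (adjusted p = 0.000263). In the axis of IL-2 and IL-15, *Il2rg*, the common gamma chain, rose from 0.538 and 1.29 FPKM to 3.93 and 3.38 on day 3 (adjusted p = 0.00441), while 4 of the 7 tested genes fell, among them *Il15ra* (4.06 and 2.86 to 1.17 and 0.845 FPKM, adjusted p = 0.00165) and *Stat5b* (52.9 and 55.3 to 12.4 and 9.89 FPKM, adjusted p = 0.000263). Of all tested genes, 24.3% were called lower on day 3.

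No tested gene of regulatory T cells and checkpoints was called higher on day 3 or day 5. Of 11 genes, 4 passed the filter, and 0 rose and 1 fell on day 3, *Ikzf2*, from 0.982 and 0.742 to 0.201 and 0.311 FPKM (limma, adjusted p = 0.00877), a share close to the 24.3% of all tested genes called lower. *Tnfrsf18* was 1.63 and 2.02 FPKM on day 0 and 2.42 and 3.36 on day 5 (adjusted p = 0.0740). *Ifng* was at most 0.117 FPKM, and *Il17a* and *Il21* were listed at 0 in every library.

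Markers of some other leukocytes changed as well, in part on other days. All 6 pan-leukocyte markers and all 10 macrophage and monocyte markers rose on day 3 in limma, with median log2 fold changes of 3.72 and 4.69 against day 0, and 2 and 3 of them were already called higher on day 1. Of all tested genes, 24.5% were called higher on day 3 and 3.53% on day 1. *Ptprc*, which encodes CD45 of all leukocytes, was 0.189 and 0.339 FPKM on day 0, 4.33 and 4.37 on day 3, then 1.22 and 1.43 on day 5, and *Adgre1*, the macrophage marker F4/80, was 0.445 and 1.66, then 25.2 and 27.5, then 7.60 and 9.89 FPKM. The summed level of the macrophage list was 46.2 to 92.0 FPKM on day 0, 1447 to 1467 on day 3 and 415 to 463 on day 5. The defining B cell gene *Cd79a* was at most 0.336 FPKM, and of 3 tested genes among 8 B cell and plasma cell markers 1 rose on day 3 (*Cd79b*), with a summed level of 19.6 to 30.4 FPKM on day 0 and 18.0 to 19.2 on day 3. Of 4 tested dendritic cell markers among 8, 2 rose (*Itgax* and *Cd209a*, adjusted p = 0.0143 and 0.00136), with a summed level of 2.13 to 3.07 FPKM on day 0 and 9.35 to 12.1 on day 3. Of 5 tested neutrophil markers among 8, 1 rose on day 3 (*Csf3r*), with a summed level of 1.92 to 5.73 FPKM on day 0, 11.1 to 19.9 on day 1 and 7.61 to 8.69 on day 3, while *Ly6g* was at most 0.0795 FPKM. The counts of B cells (1 of 3) and neutrophils (1 of 5) were near the 24.5% of all tested genes called higher on day 3, and that of dendritic cells rested on 4 tested genes. The part of all these leukocytes in the levels of the members was not tested.

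**Figure D4:**
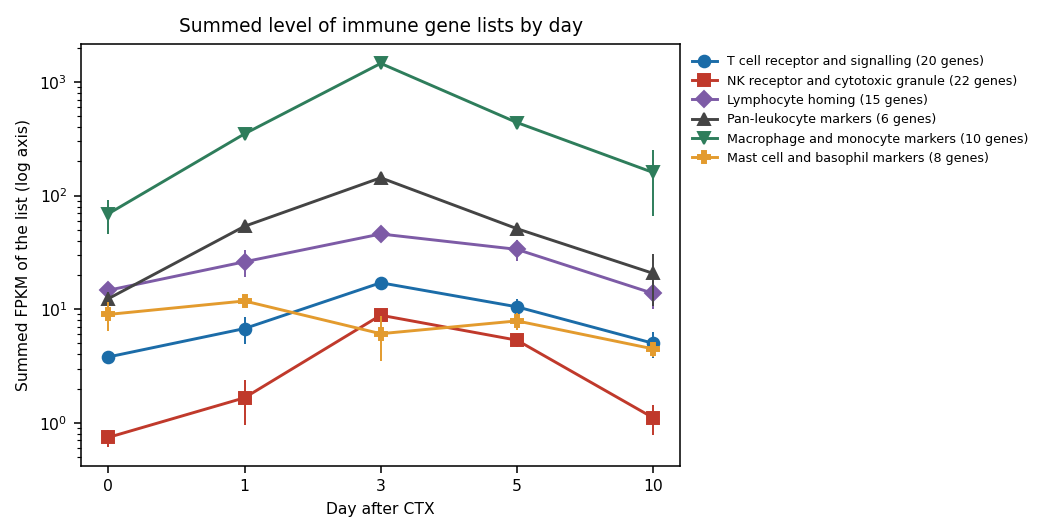
Summed FPKM of 6 gene lists (vertical axis, log scale) by day after CTX (days evenly spaced), with the mean of the 2 libraries as a point and a vertical line from the lower to the higher library. The list of NK receptors and cytotoxic granules rises from a mean of 0.743 FPKM on day 0 to 8.85 on day 3, while that of macrophages and monocytes rises from 69.1 to 1457.

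Divided by *Ptprc* in the same library, 8 of the 10 members were higher on day 5 than on day 3 with no overlap. *Cd4* was 22.6% and 44.4% of *Ptprc* on day 3 and 67.0% and 85.1% on day 5, and *Il2rb* was 23.1% and 39.04% on day 3 and 47.1% and 74.1% on day 5. *Ptprc* itself was lower on day 5, and of all tested genes 89.7% had a higher ratio without overlap, so the count is close to that background. Muscle fibre genes moved the other way: 8 of 8 fell on day 3 against day 0, with a summed level of 61030 to 70110 FPKM on day 0 and 13650 to 17880 on day 3. The values were not scaled to all reads of a library. For replicate 1 of day 0, 1 read on 1 kb was 0.0803 FPKM at 16780000 reads on genes, and for replicate 1 of day 3 it was 0.0507 at 14330000. The part of the fibre shift in the rise of the members was not tested.

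In the C2C12 libraries, which were scaled separately and are not compared with muscle, 7 of the 10 genes were listed at 0 in all 8 libraries (*Cd3e*, *Cd3d*, *Cd3g*, *Cd4*, *Nkg7*, *Gzma* and *Gzmb*). A count of 0 allows up to 3 reads per library. *Cd8a* had 1 read in 1 library, of Cas9M3 after 3 days.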

How the data were processed

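RNA-seq of TA muscle after CTX (10 libraries, 5 days) and of C2C12 cells (8 libraries) was used, and 8 further C2C12 samples were not analysed here. HISAT2 with the GRCm38 genome and featureCounts were used by the authors, who deposited FPKM values made with the fpkm function of DESeq2, 1 table per experiment. Groups came from the labels.

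Genes that reached 0.5 FPKM in 2 or more muscle libraries were tested on log2(FPKM + 0.1) with limma 3.58.1 (lmFit, eBayes with a trend) in R 4.3.3, all 5 days in one fit, with Benjamini-Hochberg adjustment over all tested genes. The fit was tested on simulated data. Reads behind values came from the step of 1 read, and 96.7% to 97.8% of low values were whole within 0.02 reads. Positions and exon lengths were from GENCODE M21, and promoters from RefSeq. Intervals of reads are exact, at 95%. Lengths other than M21 gave whole reads for *Foxp3* and *Il2rb*.

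The genes named are all 10 members, the 3 genes nearest to each tested member by correlation, the defining markers, and up to 4 genes per list, those with the highest mean on their highest day. *Lck*, *Cd247*, *Cd28*, *Zap70*, *Cd5*, *Cxcr3*, *Ccr7*, *Cxcl10*, *Il2rg*, *Il15ra*, *Il2ra*, *Ctla4*, *Ifng*, *Il17a*, *Il21*, *Fcer1a*, *Kit*, *Mcpt8*, *Ms4a2*, *Ly6g*, *Xist*, *Ddx3y* and genes overlapping a member were added after their values were seen. Members and lists were chosen with earlier results of these data known. Alternatives were other pseudocounts, filters, scalings, calls, fits and left-out libraries. Some genes of the marker lists are not reported here.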

Additional observations from a re-analysis of the deposited data

Results flagged for a closer look

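*Il2rb* and *Foxp3* gave reads in the C2C12 libraries, which hold no T or NK cells by their labels and lie outside the comparisons of the muscle libraries. *Il2rb* was above 0 in 8 of 8 libraries, from 0.0443 to 0.302 FPKM, with 6 to 27 reads, so every library exceeded the 3 reads that a count of 0 allows. *Foxp3* was above 0 in 8 of 8 libraries as well, from 0.00784 to 0.0744 FPKM, with 1 to 5 reads, and 3 libraries exceeded 3 reads. Both genes are measured in these cells where the CD3 genes are listed at 0, and the source of the reads was not tested.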

How the results depend on the processing

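Day 3 against day 0 gave 4 or 5 called members under each alternative with a filter, leaving out each library included, and 7 of 10 with no filter, and under quantile normalization 1 of the 5 was *Foxp3*, called lower. Day 5 against day 0 gave 1 member when only these 2 days were fitted and 0 with a term for *Xist*, and 0 to 4 when a library was left out. Day 3 against day 1 gave 5 with a pseudocount of 1, 1 with a pseudocount of 0.01, 1 with the term for *Xist* and 0 to 4 with a library left out. The F test gave 3 with a pseudocount of 0.01, 3 with the term for *Xist* and 2 to 5 with a library left out. Day 1 against day 0 gave 0 to 1 with a library left out, the 1 being *Nkg7* without replicate 2 of day 1. The cause of these shifts was not tested.

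Same-numbered libraries of 2 days had correlated deviations above 0.1 in 2 of 10 pairs of days (r from -0.019 to 0.211), so the numbers were not taken to pair the samples. With a replicate block, 2 members, *Gzma* and *Il2rb*, were called lower on day 10 against day 5 (limma, adjusted p = 0.0443 and 0.0462), where the fit without it called 0, while among all genes 258 were called lower against 27 without it, and no other count of calls moved by over 1.5 times.

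Directions changed only in values that were not called. Under quantile normalization, which shifted the median of all genes by -0.116 on the log2 scale for day 3 against day 0, *Cd3d* was -0.06 on day 1, -0.12 on day 5 and -0.66 on day 10, and *Gzmb* was -0.39 on day 3, all against day 0. There *Foxp3* was called lower on days 3 and 5. With a pseudocount of 0.01, *Cd3d* on day 10 was -0.52. With a pseudocount of 1, *Gzma* on day 10 was -0.03 and *Gzmb* on day 3 was -0.02. With the term for *Xist*, *Cd4* was 0.02 on day 5 against day 3, *Gzmb* -0.08 on day 3 and *Il2rb* 0.61 on day 1. Leaving out 1 library, *Cd3d* on day 10 ranged from -0.51 to 0.65, *Gzma* on day 10 from -0.90 to 1.09 and *Il2rb* on day 10 from -0.35 to 0.23, *Cd4* on day 1 from -0.09 to 1.11, *Foxp3* on day 1 from -0.21 to 0.10 and *Il2rb* on day 1 from -0.39 to 0.18, *Gzmb* on day 3 from -0.92 to 1.25 and on day 5 from -1.71 to 0.46, all against day 0, and *Cd4* on day 5 against day 3 from -0.90 to 0.02. Of the 7 members' fold changes under all alternatives, 837 kept their direction and side of the threshold, 39 lost a call and 12 gained one.

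With no filter, 31329 genes were tested, and *Cd3g* and *Cd8a* were called higher on day 3 and *Cd8a* on day 5. Values under 3 reads limit what can be said of days 0 and 10.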

Other observations

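Immunoglobulin transcripts had time courses of their own, which were not tested against those of the T cell and NK cell genes. *Igkc*, the kappa light chain constant region, was 27.1 and 4.96 FPKM on day 5 and 2.92 and 14.3 on day 10, and at most 1.55 FPKM in any library of days 0, 1 and 3, and it rose on day 5 against day 0 (limma, adjusted p = 0.0343). *Jchain*, which joins immunoglobulin chains in plasma cells, had its highest value of 1.80 FPKM in the same library as *Igkc*, replicate 1 of day 5. *Ighm*, the mu heavy chain, was 29.5 and 17.0 FPKM on day 0, 7.74 and 7.99 on day 1, 14.9 and 17.0 on day 3 and between 4.68 and 7.49 FPKM on days 5 and 10. It rose on day 3 against day 1 (log2 fold change 1.01, limma, adjusted p = 0.0343) and fell on day 5 against day 3 (-1.31, adjusted p = 0.0285).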
